A study of Mus musculus with 32 samples.

Results

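The comparison is that of H3K27 acetylation after 2 h of 4-hydroxytamoxifen (4-OHT) with H3K27 acetylation before 4-OHT, in B3 cells carrying inducible Ikaros. Its members are the H3K27ac regions called in every one of 4 chromatin immunoprecipitation (ChIP-seq) libraries, 2 at 0 h and 2 at 2 h, out of 32 libraries in the series. The 4 peak lists merged into 36178 regions, and 15798 of these (43.7%) held a peak in all 4 lists and were kept. B3 is a mouse pre-B cell line that was first obtained from a lymphoma model. All cells, those at 0 h included, carried Ikaros (IKZF1) with an HA tag and fused to the ERt2 hormone-binding domain, delivered by a retrovirus that also encodes GFP, and transduced cells were sorted on GFP. The 0 h cells received no treatment and the 2 h cells received 500 nM 4-OHT, which lets the fusion protein enter the nucleus. No library analysed here came from cells that lacked the construct and received 4-OHT, so a response to 4-OHT itself and one to Ikaros cannot be told apart. Chromatin was fixed with DSG and formaldehyde before H3K27ac was precipitated. Libraries of H3K27ac at 30 min and 1 h, and of Ikaros and CHD4 at 0 h and 2 h, are used beside the comparison.

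Ikaros is a zinc finger protein that binds DNA and restrains the growth of B cell precursors, and its loss is common in B cell leukaemia. It works largely through the NuRD complex, which joins the remodelling ATPase CHD4 to histone deacetylases. Acetylation of lysine 27 of histone H3 is written by p300 and CBP at active promoters and enhancers, and its removal accompanies their silencing. The comparison asks where acetylation at sites already active before induction became weaker or stronger within 2 h of Ikaros entering the nucleus.

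Sites of each kind are shown first. They are windows of 200 bases of the plus strand of GRCm38 (mm10), read from RefSeq's genome sequence, centred on the summit of the strongest Ikaros peak of the region at 2 h (replicate 1), or on the centre of the region where that library had no Ikaros peak. Capitals mark the Ikaros core GGGAA on either strand (GGGAA or TTCCC), which overlaps the shorter ETS core GGAA. At Gas6 (chr8:13490553-13490752, in an intron) and in the Gfra2 (chr14:70893942-70894141) and Itga5 (chr15:103377012-103377211) regions H3K27ac fell, and these 3 windows were chosen after their values were seen.
Gas6: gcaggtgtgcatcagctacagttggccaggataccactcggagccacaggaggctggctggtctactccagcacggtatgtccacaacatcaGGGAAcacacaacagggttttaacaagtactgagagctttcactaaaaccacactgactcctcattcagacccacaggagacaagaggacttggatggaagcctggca
Gfra2: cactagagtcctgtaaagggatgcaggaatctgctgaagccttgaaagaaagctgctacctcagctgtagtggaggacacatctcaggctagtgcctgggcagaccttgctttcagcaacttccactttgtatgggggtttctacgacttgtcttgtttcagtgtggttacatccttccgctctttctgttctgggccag
Itga5: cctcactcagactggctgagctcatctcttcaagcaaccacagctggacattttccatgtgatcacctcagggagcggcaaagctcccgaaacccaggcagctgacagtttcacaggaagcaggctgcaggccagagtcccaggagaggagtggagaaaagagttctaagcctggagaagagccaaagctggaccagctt
The falls shown are the first 3 by rank outside untranslated regions, which passes over Plxnb1 and Tmem26. They had no Ikaros peak in that library and are shown at the centre of the region, near Colgalt2 (chr1:152461546-152461745), Zcchc2 (chr1:105915082-105915281) and Mrgpra2a (chr7:47420748-47420947).
Colgalt2: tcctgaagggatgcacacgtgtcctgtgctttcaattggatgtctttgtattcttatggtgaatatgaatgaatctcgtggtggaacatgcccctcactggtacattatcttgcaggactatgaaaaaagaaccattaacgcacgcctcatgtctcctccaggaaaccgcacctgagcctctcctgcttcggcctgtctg
Zcchc2: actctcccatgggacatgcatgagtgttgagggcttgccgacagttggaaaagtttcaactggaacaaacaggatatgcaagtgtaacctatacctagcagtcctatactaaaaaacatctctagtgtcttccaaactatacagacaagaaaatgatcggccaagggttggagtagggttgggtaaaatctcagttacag
Mrgpra2a: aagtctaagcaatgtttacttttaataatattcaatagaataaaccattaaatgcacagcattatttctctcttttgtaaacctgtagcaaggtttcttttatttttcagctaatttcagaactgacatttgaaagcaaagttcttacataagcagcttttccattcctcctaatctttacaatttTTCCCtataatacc
The first 3 rises of rank are shown at the Ikaros summit for Ublcp1 (chr11:44462620-44462819) and Xrcc6 (chr15:82027495-82027694) and at the region centre for 0610010F05Rik (chr11:23572990-23573189).
Ublcp1: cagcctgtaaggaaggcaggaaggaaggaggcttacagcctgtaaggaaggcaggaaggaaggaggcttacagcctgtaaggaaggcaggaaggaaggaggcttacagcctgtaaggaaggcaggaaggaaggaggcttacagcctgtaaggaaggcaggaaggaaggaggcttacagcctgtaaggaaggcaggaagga
Xrcc6: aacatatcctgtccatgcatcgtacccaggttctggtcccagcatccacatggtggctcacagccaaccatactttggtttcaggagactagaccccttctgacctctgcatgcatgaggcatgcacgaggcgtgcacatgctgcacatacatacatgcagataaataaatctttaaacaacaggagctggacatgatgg
0610010F05Rik: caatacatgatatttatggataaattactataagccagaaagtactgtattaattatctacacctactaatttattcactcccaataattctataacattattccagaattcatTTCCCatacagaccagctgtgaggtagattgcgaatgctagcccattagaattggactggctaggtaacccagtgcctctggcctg
The Ikaros core occurred once in the Gas6, Mrgpra2a and 0610010F05Rik windows and not in the other 6. Of 8591 windows at 2 h Ikaros summits in kept regions, 57.4% held the core, and of all 15798 windows at region centres, 47.9% did. The Ublcp1 window is a tandem repeat with 17 matches to GGAA or TTCC, where the median summit window had 3 and no other summit window reached 17. The peak lists cannot show whether reads in such a repeat have a single origin in the genome.

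Depth was close among the 4 libraries. Their mean coverage, recovered from the lists, was 4.26 and 4.30 fragments per base at 0 h (replicates 1 and 2) and 3.96 and 4.02 at 2 h. The lists held 25095 and 21468 peaks at 0 h and 33664 and 25141 at 2 h, and the mean difference of 6121 peaks had an exact two-sided permutation p of 0.333, the smallest that 2 libraries against 2 allow. Leaving out 1 library, the difference ran from 1859.5 (without 2 h replicate 1) to 10382 (without 2 h replicate 2). The labels do not say that replicates were separate cultures, so all p-values measure only the spread between these libraries, which may be technical. A peak at the gene's own transcription start site (TSS) was called in all 4 lists for 10 of 10 B cell markers. The same held for 3 of 10 T cell markers (Cd3d, Gata3 and Lck), 1 of 10 myeloid markers (Fcgr1) and 1 of 10 erythroid markers (Klf1), while Cd4, Cd8a, Csf1r, Mpo and Gata1 had no such peak in any list.

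Each region was measured in 2 ways. The first is the deposited fold enrichment over the local background at its highest peak, turned into a percentile rank among kept regions within each library (0 lowest, 100 highest). The second is the number of fragments stacked at that summit, recovered from the deposited fold and p-value. Peak summits were lower at 2 h. The median fold was 11.9 and 10.1 at 0 h and 8.10 and 7.86 at 2 h, and the median number of fragments at the summit was 72 and 66 at 0 h and 47 in each library at 2 h. Both 2 h libraries lay below both 0 h libraries in each measure. Divided by the mean coverage, the medians were 16.9 and 15.3 at 0 h and 11.9 and 11.7 at 2 h. No spike-in is named for the H3K27ac libraries in the sources used here, so weaker acetylation everywhere and a less efficient precipitation cannot be told apart, and all results below are relative to the other regions of the same library.

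Replicates ranked regions alike. Rank correlation across regions, which are not independent replicates, was 0.883 between the 0 h libraries and 0.837 between the 2 h libraries for the fold, against 0.764 to 0.799 across the times. For fragments it was 0.966 and 0.943, against 0.854 to 0.876 across the times. A region moved by a median of 7.48 rank points between the 0 h replicates, 9.32 between the 2 h replicates, and 10.6 to 11.7 between a 0 h and a 2 h library. The corresponding medians for fragments were 4.37, 5.49 and 7.96 to 9.02. The shift with time was larger than the swap of replicates in both measures.

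By fold rank, 2728 regions (17.3% of those kept) had both 2 h ranks below both 0 h ranks with a mean change of at least 10 points, and 2742 (17.4%) had both above. When ranks ran over all peaks of each list, the counts were 1010 and 4213. With limma on the log2 fold, scaled to the same distribution in each library, 0 regions were lower (0%) and 0 higher (0%) at a Benjamini-Hochberg adjusted p of 0.05. The smallest adjusted p was 0.112, and 1208 regions were lower and 1149 higher at an unadjusted p of 0.05. With limma on log2 fragments over the mean coverage, scaled the same way, 1486 of 15791 regions were lower (9.41%) and 1460 higher (9.25%). The smallest adjusted p was 1.36e-05, and at an unadjusted p of 0.05 there were 2513 lower and 2622 higher. The fragment test was added after the data were seen. It needs all 4 libraries, since leaving out any one of them, 0 h replicate 1, 0 h replicate 2, 2 h replicate 1 or 2 h replicate 2, left 0 calls in either direction (smallest adjusted p 0.157 to 0.303). In a fit to all 8 H3K27ac libraries, 1372 of 1427 lower and 1375 of 1435 higher regions that it could test were called again. That fit made 635 lower and 575 higher calls without 0 h replicate 1, 578 and 545 without 0 h replicate 2, 949 and 698 without 2 h replicate 1, and 1139 and 1088 without 2 h replicate 2. The time left with 1 library has no spread of its own there and is assumed to vary like the other times, so these counts are no test of that library.

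The change at called regions was mostly moderate. Its median was -0.71 on the log2 scale at lower regions and 0.67 at higher ones, and 257 lower and 169 higher regions changed by at least 1 log2 unit. The range ran from -2.25 to 1.88. The 2 measures called overlapping sets, since 1105 regions were lower by both (40.5% of those lower by rank, 74.4% of those lower by fragments) and 975 higher by both (35.6% and 66.8%). A region lower by rank was higher by fragments 6 times, and the reverse occurred 2 times. The local background that divides the fold moved with the rank, with a median log2 ratio of 2 h over 0 h of 0.18 at regions lower by rank and -0.13 at those higher by rank. At regions called by fragments it was -0.018 and 0.093. Without scaling, the median region lay at -0.39 on the log2 scale, and the calls became 6949 lower and 306 higher. With the medians aligned instead, 1519 were lower and 2277 higher. Every one of the 1486 lower regions and 1381 of the 1460 higher ones kept their sign without scaling. Dropping the scaling moved values down, so lower regions were bound to keep their sign and only the count of higher regions is informative. Because scaling offsets the general drop, a region called higher can hold the same number of fragments at both times.

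**Figure D1:**
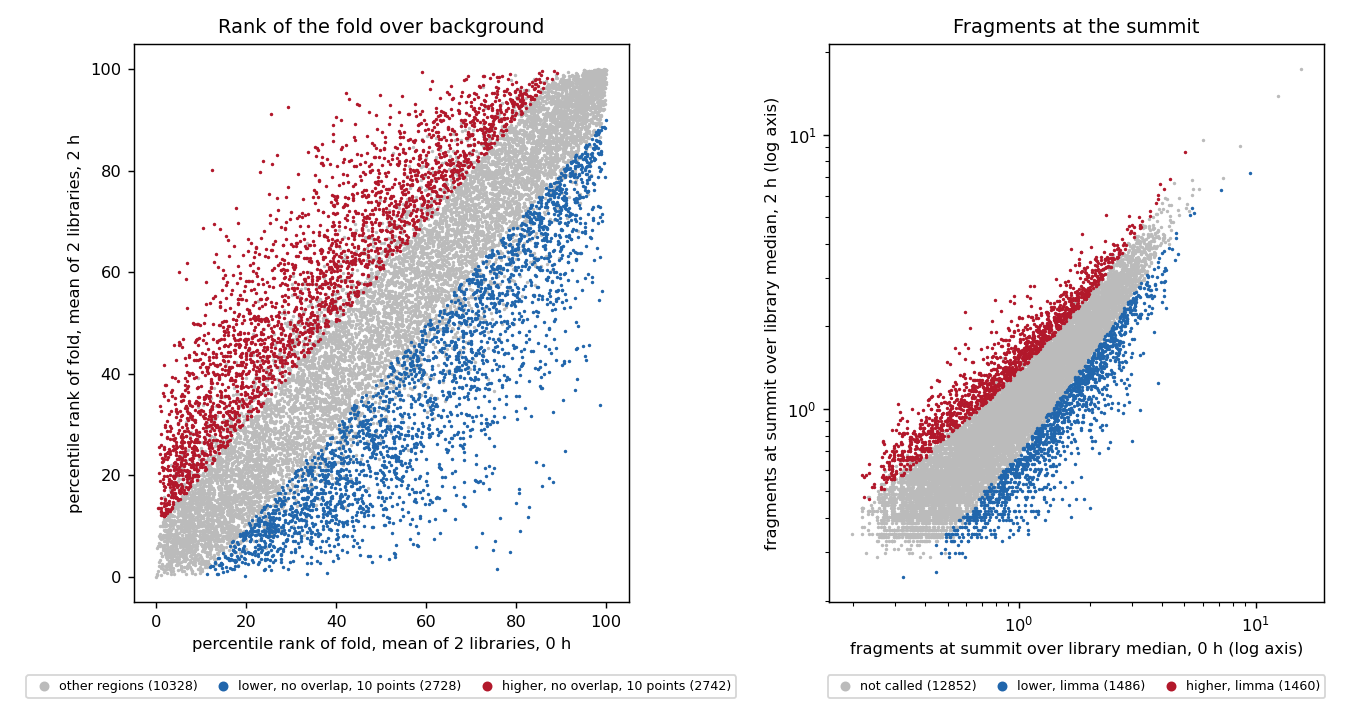
Each point is one of the 15798 kept regions, with its level before 4-OHT on the x axis and after 2 h on the y axis (means of 2 libraries). Left, percentile rank of the fold, with the 2728 regions lower and 2742 higher without overlap of replicates in blue and red. Right, fragments at the summit divided by the library median, on log axes, with the 1486 lower and 1460 higher regions called by limma. Called regions flank the diagonal over the whole range of levels.

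The largest falls by rank lay mostly away from promoters. Of the 15 largest, 2 had an edge within 1 kb of the TSS of their nearest protein-coding gene (Arhgef5 and Nrxn2), and the others lay between 1873 bp (Gas6) and 679854 bp (Ghitm) from it, so the gene named is a landmark and not a shown target. Their log2 differences in fragments ran from -0.76 to -2.25. Fragments are recovered from the same fold and p-value of the same peaks, so for regions chosen by rank their direction and lack of overlap restate the choice and are given as a description. The largest fall was in an intron of Colgalt2, a collagen galactosyltransferase, 60605 bp from the TSS (chr1:152460435-152462857). Its ranks were 77.5 and 74.1 at 0 h and 0.7 and 2.3 at 2 h, with 107 and 87 fragments at 0 h and 28 and 21 at 2 h. The 2 h values lay far below the 0 h values (log2 difference in scaled fragments -1.45 ± 0.19 SE). Here the local background was also higher at 2 h, by 0.97 on the log2 scale. The second lay between genes, 73644 bp from Zcchc2, with ranks of 81.2 and 76.0 at 0 h and 4.8 and 4.9 at 2 h, and with 116 and 90 fragments against 29 and 22.

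Other strong falls came with smaller changes of the local background, between -0.36 and 0.30 on the log2 scale at the next 3 described here. The Plxnb1 region (chr9:109116516-109119481), whose centre is in a UTR of this semaphorin receptor gene, had 128 and 101 fragments at 0 h and 18 and 20 at 2 h. At Tmem26 (chr10:68776399-68782456) there were 149 and 126 fragments at 0 h, and 20 and 21 at 2 h. That was the largest fall in fragments of all regions (-2.25 ± 0.17 SE), and Ikaros peaks were called there in the 0 h lists only. Gas6 encodes a ligand of the TAM receptor kinases, and its intronic region (chr8:13488300-13492617) ranked 98.1 and 99.0 at 0 h but 49.8 and 17.7 at 2 h. It had 210 and 204 fragments at 0 h, 68 and 66 at 30 min, 53 and 47 at 1 h, and 40 and 32 at 2 h. The 2 replicates stayed close at each time, and 30 min already lay below 0 h (2 h against 0 h, -2.04 ± 0.15 SE). A CHD4 peak was called at Gas6 in both 0 h lists and in neither 2 h list.

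The rest of the 15 were near Mrgpra2a, Ghitm, Cdh17 (an intestinal cadherin), Hs1bp3, Ankrd63, Arhgef5 (a guanine nucleotide exchange factor), Ptgs1 (cyclooxygenase-1), Ski (a SMAD corepressor), D10Jhu81e and Nrxn2 (a neurexin). Their mean change of rank ran from -64.8 to -69.6. With ranks over all peaks of each list, 6 of the 15 falls were smaller by over 1.5 times, those at Tmem26 (-46.5), Ghitm (-44.4), Ankrd63 (-40.6), Arhgef5 (-40.6), Gas6 (-39.7) and Ptgs1 (-37.9). The Arhgef5 region touched the promoter and had 138 and 115 fragments at 0 h and 27 and 26 at 2 h. At Ski, by contrast, fragments fell less (151 and 131 against 53 and 41, log2 -1.06) while the background was higher by 0.80 on the log2 scale. At Nrxn2 there were 104 and 91 fragments against 34 and 46 (log2 -0.76), with a background higher by 1.02, so its rank moved together with the background.

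Of the 15 largest rises, 4 had an edge within 1 kb of the TSS of their nearest protein-coding gene (Ublcp1, Xrcc6, Cmss1 and Manea). Their log2 differences in fragments ran from 0.66 to 1.88, again as a description of regions chosen by rank. The largest was at the promoter of Ublcp1, which encodes a phosphatase of the proteasome (chr11:44461438-44464242), with ranks of 23.4 and 1.3 at 0 h and 82.8 and 77.7 at 2 h. It had 56 and 49 fragments at 0 h and 99 and 80 at 2 h, a log2 difference of 1.28 ± 0.16 SE, and its background differed by -0.94 on the log2 scale. The largest rise in fragments of all regions was 14813 bp from 0610010F05Rik (chr11:23565583-23580596), in an intron, where no Ikaros or CHD4 peak was called at either time. Fragments there were 50 and 32 at 0 h, 72 and 76 at 30 min, 103 and 66 at 1 h, and 114 and 98 at 2 h. Both libraries of each later time lay above both 0 h libraries (2 h against 0 h, 1.88 ± 0.18 SE).

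The third rise was the shared promoter region of Xrcc6 and Desi1 (chr15:82025835-82030861). Xrcc6 encodes Ku70, which holds broken DNA ends during V(D)J recombination. Its ranks were 34.6 and 23.8 at 0 h and 93.4 and 91.7 at 2 h, and its fragments 77 and 62 at 0 h, 106 and 88 at 30 min, 146 and 103 at 1 h and 104 and 97 at 2 h. All 6 treated libraries lay above both untreated ones (2 h against 0 h, 1.08 ± 0.14 SE), and the background differed by -0.93 on the log2 scale. Other rises were near Mkln1 (inside Lncpint), Col13a1, Stc2 (a secreted glycoprotein), Nab1 (an EGR corepressor), Cmss1, Agfg2, Dmc1 (the meiotic recombinase), Manea, Tcf12, Arl5c and Rpia. With peaks within 500 bp joined, the rise at Manea shrank from 55.0 to 8.52 rank points and the fall at Ankrd63 from -67.9 to -36.8, and without 2 h replicate 2 the rise at Dmc1 was 36.5 in place of 55.0. The Rpia region lay at the immunoglobulin kappa gene Igkv4-73, 1571592 bp from Rpia itself, with 28 and 15 fragments against 48 and 50.

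**Figure D2:**
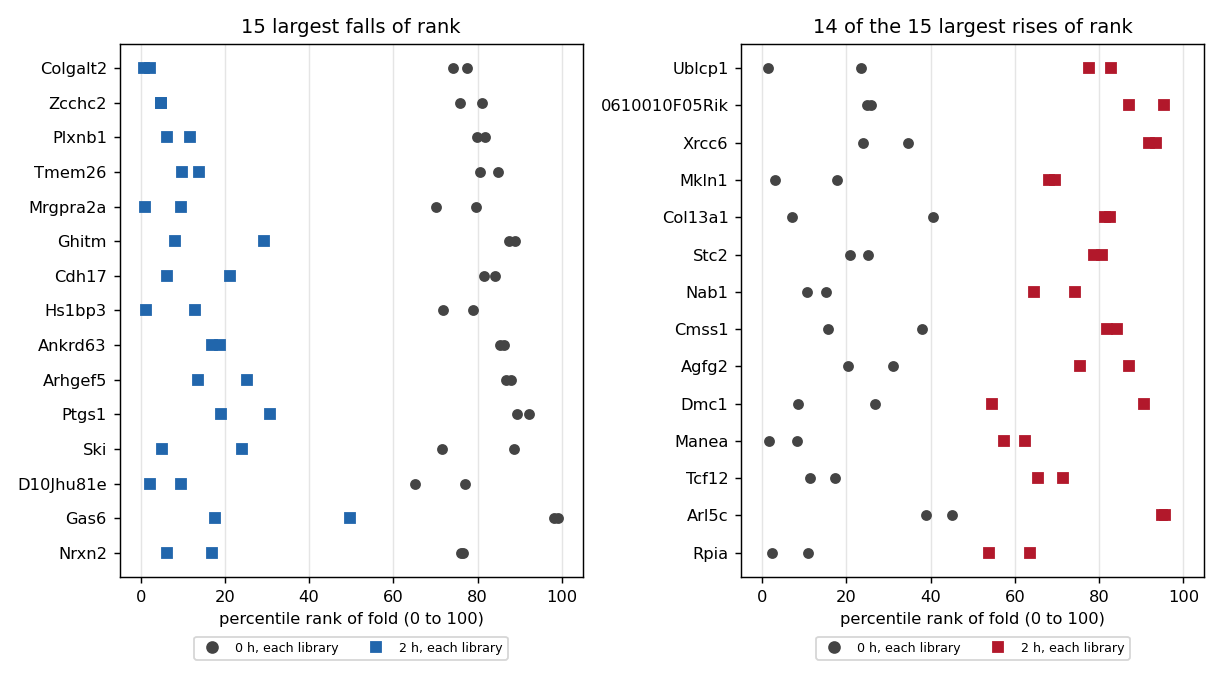
Percentile rank of the fold (x axis, 0 to 100) in each library for the 15 largest falls (left) and 14 of the 15 largest rises (right), 1 row per region, named by its nearest protein-coding gene. Grey circles are 0 h libraries and squares are 2 h libraries. The rows were chosen because the times do not overlap, and the widest shifts are at Colgalt2 (-74.3) and Ublcp1 (67.9).

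Fragments added regions that rank had placed lower in order. Values in brackets from here on are log2 differences in scaled fragments, 2 h minus 0 h, and values set against each other are fragments in the 2 libraries at 0 h and at 2 h. Among the 25 largest falls, those at Acox3 (a peroxisomal oxidase, -1.79), Timeless (a replication fork protein, -1.70) and Adcy6 (-1.63) overlapped the TSS. Others were far from their nearest gene, 21073 bp from Irx4 (-1.77), 56954 bp from Sstr4 (a somatostatin receptor, -1.79), 239319 bp from Tgfb2 (-1.68) and 279943 bp from Sox9 (-1.74). In the Irx4 region fragments were 236 and 210 at 0 h, 123 and 95 at 30 min, 72 and 58 at 1 h and 49 and 44 at 2 h. The replicates of each time stood apart from those of the next, in one direction. Among the 25 largest rises were regions near Lclat1 (36055 bp away, 1.63), Ugp2 (29021 bp away, 1.49), Wipf1 (a partner of the WASP protein, 861 bp away, 1.44), Ptprj (a receptor phosphatase, 2270 bp away, 1.41) and Satb1 (a chromatin organiser of lymphocytes, 328787 bp away, 1.33). At Satb1 there were 37 and 44 fragments at 0 h and 73 and 70 at 2 h, and Ikaros and CHD4 peaks were called there at 2 h only. Besides Igkv4-73, the regions 4960 bp from Igkv4-79 (19 and 24 fragments against 49 and 43, log2 1.52) and 5107 bp from Igkv4-59 (44 and 40 against 79 and 78, log2 1.41) were higher. The Igkv genes are variable segments of the kappa light chain, which pre-B cells rearrange.

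Several genes held more than one called region within 20 kb of a TSS. Of 8916 genes with a kept region in that reach, 2256 had 2 or more. At 101 genes 2 or more regions were lower, at 80 genes 2 or more were higher, and at 56 genes regions of both directions occurred. All 4 regions of Epb41l4b were lower (log2 -0.41 to -0.98), as were all 3 of Plxnd1 (a plexin, -0.96 to -1.29), Hk1 (hexokinase, -0.65 to -0.90) and B4galt4 (-0.58 to -0.97). All 4 regions of Ica1 were higher (0.50 to 1.25), as were all 3 of Dcun1d5 (0.48 to 0.89). Rgl1 had 4 lower and 2 higher regions among 9.

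Acetylation was lower in most regions near 18 genes that the study named as quickly repressed by Ikaros. The study chose part of this list on these samples, so its direction is not independent evidence. Of the 18, 15 were the nearest gene of a kept region within 20 kb, and Vpreb1, Hs3st2 and Espnl were not. The peak at the Vpreb1 start belongs to the Igll1 region (chr16:16853883-16874843), which spans both genes. Of the 29 regions of the 15 genes, 17 at 14 genes were lower by fragments (58.6%) and 1 was higher (3.45%), beside 8.47% and 8.06% of the 12474 regions within 20 kb of any protein-coding TSS. By rank, 18 were lower and 2 higher (62.1% and 6.90%, beside 16.7% and 16.4%), and the median change was -18.3 rank points and -0.59 in log2 fragments. Ccnb1, a mitotic cyclin that the study also named, was left out of the list. Its promoter region had 283 and 282 fragments at 0 h and 109 and 133 at 2 h (-0.84 ± 0.12 SE), and its rank change of -9.33 was not called. With it, 18 of 30 regions (60%) were lower by fragments and the median rank change was -16.5. The strongest changes were at Itga5, the alpha chain of the fibronectin receptor, and Gfra2, a GDNF family receptor. The Itga5 region (chr15:103372653-103389043) had 290 and 242 fragments at 0 h, 97 and 87 at 30 min, 76 and 48 at 1 h and 65 and 52 at 2 h (2 h against 0 h, -1.73 ± 0.13 SE, adjusted p = 1.5e-05). The summits compared there lay up to 5794 bp apart. At the Gfra2 promoter there were 177 and 157 fragments at 0 h, 95 and 78 at 30 min, 53 and 34 at 1 h and 34 and 37 at 2 h (-1.73 ± 0.14 SE, adjusted p = 2.8e-05). At both genes the 30 min libraries already lay below both 0 h libraries. Serpinf1 went from 209 and 174 fragments at 0 h to 94 and 82 at 30 min and 49 and 48 at 2 h (-1.47 ± 0.13 SE).

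Genes of the pre-B stage were in this group. Igll1, the lambda5 chain of the surrogate light chain, had 317 and 259 fragments at 0 h and 112 and 107 at 2 h (-0.97), while its rank of fold moved by -6.29. A region 4955 bp from Dntt, which encodes terminal transferase, had 96 and 89 fragments at 0 h, 44 and 41 at 30 min and 30 and 31 at 2 h (-1.07), while the other 3 Dntt regions were not called by fragments. One of these, 3840 bp from Dntt, was lower by rank (-25.2 points, 118 and 96 fragments against 62 and 56). Cyclin genes and Myc were in the list too. At the Ccnd2 promoter there were 100 and 92 fragments at 0 h, 93 and 72 at 30 min, 60 and 38 at 1 h and 33 and 42 at 2 h (-0.84), so that 1 of the 30 min libraries lay between the 0 h values. Myc had 116 and 112 against 50 and 45 (-0.72), Bcl11a 161 and 154 against 65 and 73 (-0.67), and Ccnd1, a low region, 39 and 37 against 18 and 12 (-0.97). Endod1, Hs3st3b1, Lrrfip1, Plekho2 and Ramp1 also had lower regions (-0.35 to -1.07), and Gins2 had none called. With median centring 1 Plekho2 region, which was not called by rank (-0.83 points), went from -0.35 to -0.13 and 1 Endod1 region from -0.60 to -0.38. The 1 higher region, 11071 bp from Hs3st3b1, had 121 and 109 fragments at 0 h and 111 and 103 at 2 h, so it was higher only relative to the library (0.42) and lay at the same level without scaling (-0.0022).

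**Figure D3:**
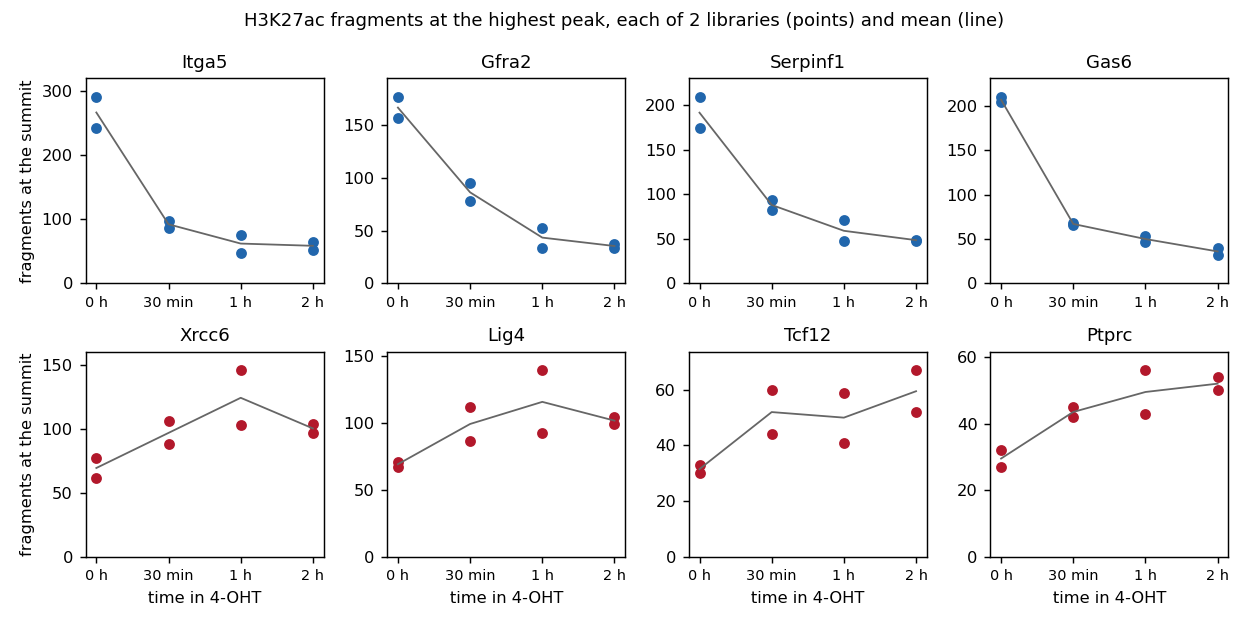
H3K27ac fragments at the highest peak of 8 regions (y axis) against time in 4-OHT (x axis). Points are the 2 libraries of each time, without scaling, and lines join their means. The upper row holds regions that fell (Itga5, Gfra2, Serpinf1 and Gas6) and the lower row regions that rose (Xrcc6, Lig4, Tcf12 and Ptprc), and the points at 0 h and 2 h do not overlap in any panel. Each is the region of its gene with the largest change among those called on the same fragments, so the separation follows from the choice.

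The counts of each further list stand beside the shares of all regions within 20 kb, which were 8.47% lower and 8.06% higher by fragments and 16.7% and 16.4% by rank. Among 34 B-lineage transcription factors, 84 regions near 26 genes split evenly, with 10 lower (11.9%) and 9 higher (10.7%) by fragments, and 15 and 16 by rank. Lef1, an effector of Wnt signalling in early B cells, had 151 and 137 fragments at 0 h, 114 and 84 at 30 min, 68 and 54 at 1 h and 54 and 59 at 2 h (-0.81 ± 0.13 SE). Regions of Bach2, Irf8, Runx1, Bcl11a, Cbfb and Ikzf1 itself were lower as well. The Ikzf1 region, in an intron and with Ikaros peaks in the 0 h lists only, had 141 and 105 fragments against 61 and 48 (-0.62). Higher regions lay at Tcf12, Tcf4 (67 and 65 against 85 and 66, which overlap before scaling, 0.73) and Tcf3, which encode the E proteins HEB, E2-2 and E2A and were set side by side here after their values were seen. At Tcf4 only 1 of 10 regions was called by fragments, and the other 9 lay between -0.53 and 0.15. At Tcf12, 3 of 7 regions were higher, the others lay between -0.17 and 0.45, and the strongest had 30 and 33 fragments at 0 h, 60 and 44 at 30 min, 59 and 41 at 1 h and 67 and 52 at 2 h (1.38 ± 0.20 SE). Its Ikaros and CHD4 peaks were called at 2 h only. At Tcf3 there were 156 and 111 fragments at 0 h and 155 and 126 at 2 h, which overlap before scaling (0.57 after it). Ets1 and Myb had regions of both directions, and 2 regions of Mef2c were higher, 1 of which lost its sign without scaling (0.38 and -0.023). The rule also named Ikzf3, 1 region of which had 30 and 25 fragments against 16 and 15 and was not called (adjusted p = 0.129).

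Signalling from the pre-B and B cell receptor showed both directions, with 11 of 56 regions lower (19.6%) and 7 higher (12.5%) by fragments. By rank the balance was the other way, with 7 lower (12.5%) and 10 higher (17.9%) and a median change of 1.53 rank points. Ptpn6, the inhibitory phosphatase SHP-1, had 142 and 127 fragments at 0 h, 82 and 74 at 30 min, 57 and 44 at 1 h and 47 and 47 at 2 h (-0.98 ± 0.14 SE). Vav3 (-1.22), Vav1 (-0.61 and -0.48), Vpreb2 (-0.92), Vpreb3 (-0.82), Blnk (-0.47), Pik3ap1 (-0.47), Inpp5d (-0.48) and 1 region of Fyn (-0.44) were also lower. Ptprc encodes CD45, the phosphatase that activates Src kinases. In its strongest region there were 32 and 27 fragments at 0 h, 42 and 45 at 30 min, 56 and 43 at 1 h and 54 and 50 at 2 h (1.32 ± 0.19 SE), with every treated library above both untreated ones. A further pair of Ptprc regions were called higher, of which the one at 159 and 145 against 143 and 139 fragments did so only after scaling (0.38, and -0.0061 without). The other had 40 and 45 against 61 and 46 fragments (0.85). Of Syk, 2 regions (0.54 and 0.53) were higher after scaling, with overlapping fragments before it (99 and 103 against 102 and 102 in the first). Another region of Fyn (0.82) and 1 of Cd22 (0.70) were higher.

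In the interleukin-7 pathway, which drives the growth of pre-B cells, 4 of 24 regions were lower and 1 higher by fragments, and 5 and 3 by rank. The lower ones were at Stat5a (58 and 65 fragments against 28 and 26, -0.66), Socs2 (2 regions, -0.60 and -0.37) and Jak2 (-0.66), and the higher one at Crlf2 (177 and 142 against 173 and 159, 0.52), whose raw values overlap. A region 8730 bp from Pim1 was lower in rank by 27.1 points but not by fragments (61 and 45 against 37 and 32, adjusted p = 0.865). Among adhesion and integrin genes 9 of 44 regions were lower (20.5%) and 4 higher (9.09%) by fragments, and 14 and 3 by rank. Besides Itga5, the lower ones were 2 regions of Pxn (paxillin, -1.27 and -0.94), 2 of Lamb1 (-1.09 and -0.80), 2 of Itgal (-0.68 and -0.70), 1 of Itga4 (-0.77) and 1 of Ptk2b (-0.67). At the Pxn promoter there were 177 and 172 fragments at 0 h and 64 and 63 at 2 h. Higher regions were at Itga6 (66 and 83 against 94 and 96, 0.90), Icam1 (0.64) and Ptk2b (1.15 and 0.71).

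Regulators of the step from G1 to S phase had 7 lower regions of 43 (16.3%) and 0 higher by fragments. By rank 7 were lower (16.3%, beside 16.7% of all regions within 20 kb) and 3 higher, and the median over the list was 0.026 in log2 fragments. Within 50 kb 3 regions were higher by fragments. Ccnd1, Ccnd2 and Myc are also among the quickly repressed genes that the study chose. The lower regions were at Cdk6 (203 and 162 fragments against 82 and 85, -0.61, and a second region at -0.46), Ccnd1, Ccnd2, Ccnd3 (-0.44), Cdkn2c (-0.38) and Myc. Cdk6 is the kinase partner of the D cyclins and Cdkn2c an inhibitor of it. Genes of V(D)J recombination had 1 lower region of 17, at Dntt, and 3 higher (17.6%) by fragments, while by rank 3 were lower and 3 higher, and the median over the list was -0.094 in log2 fragments. Beside Xrcc6 the higher ones were Lig4 (DNA ligase IV) and Xrcc5 (Ku80). At Lig4 there were 67 and 71 fragments at 0 h, 112 and 86 at 30 min, 139 and 92 at 1 h and 104 and 99 at 2 h (1.09 ± 0.14 SE, adjusted p = 0.00035). Each later library lay above both at 0 h. Xrcc5 had 94 and 74 against 99 and 84 (0.67), which overlap before scaling. The Hmgb1 promoter had 263 and 199 against 125 and 153 and was not called.

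Among NuRD subunits the shares by fragments, 10% lower and 5% higher of 20 regions, were near those of all regions (by rank 4 and 2 regions). The median over the list was -7.61 rank points and -0.099 in log2 fragments. The 2 lower ones were at Mta3 (97 and 90 fragments against 38 and 30, -0.93) and Gatad2a (-0.91), and the higher one at Mbd2 (43 and 36 against 51 and 50, 0.89). The BCL2 family had 5 lower regions of 20 (25%) and 1 higher by fragments, and 8 and 2 by rank. Bcl2l1, which encodes the survival protein BCL-XL, had both kinds, a promoter region with 159 and 144 fragments against 65 and 72 (-0.61) and an intronic region 9567 bp away with 54 and 58 against 93 and 70 (1.06), where Ikaros peaks were called at 2 h only. The others were at Mcl1 (-0.79), Bok (-0.67), Bak1 (-0.48) and Bcl2 (-0.55). In glucose uptake and glycolysis 5 of 30 regions were lower and 0 higher by fragments (9 and 0 by rank), at Txnip (169 and 164 against 72 and 70, -0.72), the glucose transporter gene Slc2a1 (97 and 84 against 43 and 31, -0.75) and 3 regions of Hk1. Pgam1 was lower in rank by 34.1 points but not by fragments (adjusted p = 0.654).

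For sterol and lipid synthesis 5 of 34 regions were lower and 2 higher by fragments, and 6 and 6 by rank. Lower regions were at Srebf1 (118 and 113 fragments against 41 and 35, -1.07), Scd1 (-0.86), Abca1 (-0.86), Scd2 (-0.54) and Insig1 (-0.48), while both higher ones were at Srebf2 (145 and 131 against 167 and 155, 0.70, and 47 and 43 against 55 and 59, 0.88). Srebf1 and Srebf2 encode the master regulators of fatty acid and of cholesterol synthesis. Immediate early AP-1 and EGR genes had 7 lower and 5 higher regions of 32 by rank. By fragments 5 were lower, at Junb (135 and 146 against 64 and 62, -0.61), Jund, Ier5, Nr4a2 and Atf3 (-0.36 to -0.82), and 2 higher, at Dusp1 (0.63) and Klf6 (0.44). Of 77 regions at cytosolic ribosomal protein genes 2 were lower (Rplp0 and Rpl38) and 1 higher (Rps27) by fragments, or 2.60% and 1.30%, and 9 and 2 by rank. Markers of other cell types gave few regions. None of 5 regions near T cell markers was called by the limma test of fragments. Of 2 near myeloid markers the one 19171 bp from Itgam was lower (62 and 56 against 18 and 29, -0.89), and the 1 at the erythroid marker Klf1 was higher (38 and 39 against 53 and 35, which overlap before scaling, 0.68).

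**Figure D4:**
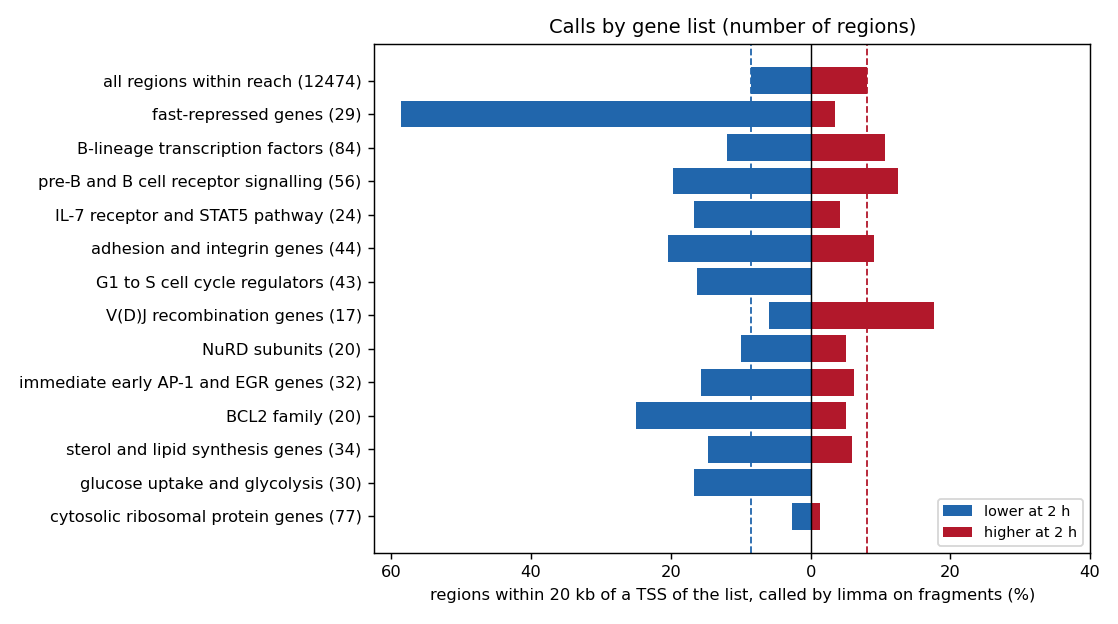
Share of H3K27ac regions (x axis, percent) within 20 kb of a TSS of each gene list that were called lower (blue, to the left) or higher (red, to the right) at 2 h by limma on fragments, with the number of regions in brackets. Dashed lines mark the shares over all 12474 such regions (8.47% lower, 8.06% higher). The quickly repressed genes, which the study chose in part on these samples, reach 58.6% lower, and the other lists drawn lie between 2.60% and 25% lower.

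The direction of the calls differed with where Ikaros and CHD4 peaks were called, here as counts without a test. Where an Ikaros peak was called in both 0 h lists and neither 2 h list (257 regions), 41.2% of regions were lower by fragments and 1.95% higher. Where it was called in all 4 lists (3640 regions), 19.3% were lower and 5.61% higher. Where it was called in both 2 h lists and neither 0 h list (1968 regions), 3.21% were lower and 14.4% higher, and with no Ikaros peak at either time (4499 regions) 3.05% and 10.7%. In the other 5434 regions, called in other combinations of lists, 8.82% were lower and 8.98% higher. The share lower thus lay above that of all regions where Ikaros was called in both 0 h lists and in both or neither of the 2 h lists. It lay below that share where Ikaros was called in both 2 h lists and neither 0 h list. The 0 h peaks are signal of the HA precipitation in untreated cells, and whether they mark fusion protein on DNA was not tested. For CHD4 the share lower was again above that of all regions in the classes called in both 0 h lists. With CHD4 at 0 h only (144 regions) 50.7% were lower and 1.39% higher, with CHD4 at both times (1044 regions) 20.6% and 9.93%, with CHD4 at 2 h only (726 regions) 4.55% and 16.7%, and without CHD4 (7304 regions) 5.31% and 7.46%. In the other 6580 regions 11.8% were lower and 10.5% higher. The CHD4 lists were uneven, with 2488 and 6000 peaks at 0 h and 5523 and 9593 at 2 h. How far the classes depend on the length of the lists was not tested.

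The mean rank of fragments followed the same division over time. In the 257 regions with Ikaros at 0 h only it was 45.4 and 44.7 at 0 h, 30.7 and 30.8 at 30 min, 29.0 and 28.3 at 1 h and 29.4 and 28.1 at 2 h. In the 144 regions with CHD4 at 0 h only it was 58.8 in each library at 0 h, 42.6 in each at 30 min, 39.5 and 39.8 at 1 h and 39.5 and 37.3 at 2 h. In both classes most of the drop was present at 30 min, and no treated library overlapped the 0 h libraries. Regions with Ikaros at 2 h only went from 56.3 and 56.5 to 59.8 and 59.7, and those with CHD4 at 2 h only from 63.1 and 63.4 to 67.4 and 67.3. A region with both Ikaros and CHD4 at 2 h only (179 regions) was higher in 22.9% of cases and lower in 3.91%. With Ikaros at both times and CHD4 at 0 h only (58 regions), 50% were lower and 1.72% higher.

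**Figure D5:**
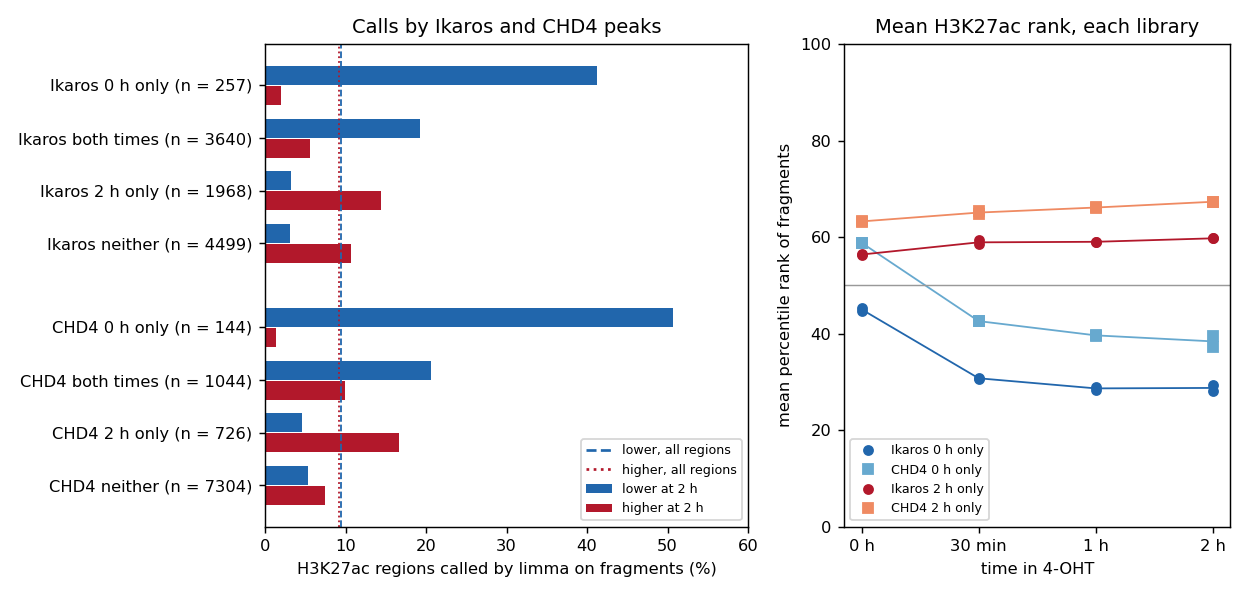
Left, share of H3K27ac regions (x axis, percent) called lower (blue) or higher (red) at 2 h by limma on fragments, by when Ikaros or CHD4 peaks were called there. Regions called in other combinations of lists are not drawn. Vertical lines mark the shares of all tested regions (9.41% and 9.25%). Right, mean percentile rank of H3K27ac fragments (y axis) in each library against time in 4-OHT, with lines through the means. Regions with Ikaros or CHD4 at 0 h only drop by 30 min (Ikaros, from 45.4 and 44.7 to 30.7 and 30.8) and those with either at 2 h only lie slightly higher at 2 h.

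Seen from the called regions, 70.0% and 77.2% of the lower ones held an Ikaros peak in the 0 h lists (replicates 1 and 2), against 19.6% and 26.2% of the higher ones and 31.1% and 36.6% of those not called. At 2 h the shares were 66.4% and 72.8%, 52.7% and 56.4%, and 53.2% and 57.2%. CHD4 peaks at 0 h lay in 32.2% and 59.5% of lower regions and in 10.7% and 28.6% of higher ones. At 2 h CHD4 lay in 27.7% and 54.3% of lower and in 30.5% and 54.5% of higher regions. The median width was 3140.5 bp for lower regions, 2665 bp for higher ones and 2308 bp for all. As single values per library, the mean rank at Ikaros sites minus that at other regions changed by -2.52 for fragments and -1.59 for fold, and that at CHD4 sites by 0.715 and 1.33 (exact two-sided permutation p = 0.333 each, the smallest possible). Both differences turned under other settings of the fold, to 5.30 for Ikaros sites called at 2 h and not at 0 h and to -1.57 for CHD4 sites with ranks over all peaks. Leaving out 1 library, the fold difference at CHD4 sites ran from 0.466 (without 2 h replicate 1) to 2.41 (without 2 h replicate 2). An Ikaros or CHD4 site here is a region with a peak in both 2 h lists.

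Ranks at the earlier times were counted for the called regions. Of the 1478 lower regions called in both 30 min libraries, 1194 (80.8%) already ranked below both 0 h libraries in both, beside 25.1% of all regions, and 1331 of 1428 (93.2%) did so at 1 h, beside 29.8%. Of the higher regions, at 30 min 830 of 1449 (57.3%, beside 24.98%) ranked above both 0 h libraries, and at 1 h 1283 of 1443 (88.9%, beside 28.3%) did. The 30 min and 1 h libraries took no part in the calls, but all these comparisons share the 0 h libraries. The regions were called against the same 0 h values, so the shares of all regions do not show what such regions would give without a change.

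Calls were counted apart for promoters and distal regions. Of 9778 regions within 1 kb of a TSS, 7.71% were lower and 6.67% higher, and of 6020 distal regions 12.2% and 13.4%. Of 1963 distal regions without Ikaros at either time, 15.8% were higher and 3.52% lower, and of 2396 distal regions with Ikaros at 2 h, 12.9% were higher and 15.5% lower. Of 4825 promoters with Ikaros at 2 h, 11.0% were lower and 6.74% higher, and of 2536 promoters without Ikaros at either time, 2.68% were lower and 6.70% higher. In each of these classes most regions were not called. The mean rank of promoters minus that of distal regions did not separate the times (change of -1.39 for fragments, exact two-sided permutation p = 1). On chromosome X, looked at after the values were seen, 405 regions gained 3.69 points of fold rank and 2.61 points of fragment rank relative to the other 15393 (exact two-sided permutation p = 0.333 each). There, 11.1% of regions were lower and 25.2% higher by rank, and 2.72% lower and 8.15% higher by fragments. Over all kept regions the shares were 17.3% and 17.4% by rank and 9.41% and 9.25% by fragments, so the share called higher by fragments on X did not exceed that of all regions.

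The windows were also compared by sequence. At 2 h Ikaros summits the Ikaros core GGGAA or TTCCC occurred in 59.98% of the windows in lower regions, 51.9% in higher regions and 57.6% in regions not called. At 0 h summits it occurred in 71.8%, 71.7% and 72.1%. The E-box CAGNTG, bound by E proteins, occurred in 47.9% of the 2 h windows in lower, 44.7% in higher and 41.2% in other regions. In the same order it was 51.5%, 47.4% and 50.3% in distal regions and 45.4%, 42.1% and 37.4% at promoters, so the pooled shares depend on place. Median GC content was 48.9% in lower, 45.4% in higher and 49.2% in other regions. It was 46.9%, 44.2% and 45.6% in distal regions and 51.3%, 47.8% and 51.2% at promoters. These shares are descriptions of the windows, and a match is not a shown binding site.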

How the data were processed

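The data are peak lists from ChIP-seq of H3K27ac, Ikaros and CHD4 in B3 cells, grouped by the library titles. Alignment to mm10 of the paired-end reads was done by the authors with Bowtie2 2.4.2, and they handled duplicates with Picard 2.23.7 and called peaks per library with MACS2 2.2.7.1, in broad mode for CHD4 (tools per the labels and the study's methods). Whether a blacklist was applied to the peak lists, and which input went with which library, is not given in the sources used here. A blacklist and downsampling by the precipitated amount are described for signal tracks, which were not used here. The deposited lists hold a fold enrichment over the local background (a ratio), a p-value and a q-value as −log10, a display score that was not compared, and, except for CHD4, the summit. The authors tested reads in peaks with DESeq2, but the lists hold no read counts, so no count model was run here.

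The 4 lists were merged by any overlap, and the highest peak of each library represented a region. Counts of a region can therefore come from different positions. All summits lay within 500 bp in 65.9% of lower, 72.7% of higher and 72.6% of all regions. Genes were the nearest protein-coding TSS of the GENCODE annotation of mm10. Fragments were recovered by solving the deposited fold and −log10 p for the pileup and background. Whole fragments (tolerance 0.05) resulted for 98.9% to 100% of the H3K27ac peaks checked, which were those at the commonest background with low pileups. The scale of each library was chosen by this same share, so the share is no independent check of the recovery. Counts of fragments are limited by depth, and 7 of the kept regions could not be recovered. Values were tested on the log2 scale with limma 3.58.1 in R 4.3.3 after quantile scaling, with no pseudocount, a variance trend and Benjamini-Hochberg adjustment over all regions, and the script was tested on simulated data. Single values were tested by exact permutation. The genes named are the 15 largest falls and rises of rank without overlap, the 25 largest of each direction by fragments, the 18 listed quickly repressed genes, and per list the 4 genes with the lowest p in the fold fit. The rule also asked for the 10 largest calls of the fold fit, which made none. A few regions that these rules name are not reported here. Other list members named were chosen after their values were seen, as was the fragment test. The members and gene lists were chosen with earlier results of these data known. Alternatives were other peak filters, merging, scaling, ranking, site definitions, distances, the replicate number as a block, and leaving out each library.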

Additional observations from a re-analysis of the deposited data

How the results depend on the processing

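The test on fold made 0 calls in either direction. It made 739 lower and 604 higher with −log10 p in place of the fold, 47 and 15 with all 8 H3K27ac libraries, and 350 and 281 at an adjusted p of 0.2, and 1486 and 1460 with fragments. The fragment calls were 6949 lower and 306 higher without scaling beyond the mean coverage, and 1519 and 2277 with median centring. Without 1 of the 4 libraries they were 0 and 0 each time, and in the fit to 8 libraries 635 and 575 (without 0 h replicate 1), 578 and 545 (0 h replicate 2), 949 and 698 (2 h replicate 1), and 1139 and 1088 (2 h replicate 2). The counts by rank were 1010 lower and 4213 higher when ranks ran over all peaks of a list, and 3510 to 4084 lower and 3761 to 4130 higher without 1 library, where fewer values have to stay apart. Differences between classes changed sign under 3 settings. That at Ikaros sites was 5.30 for sites called at 2 h and not at 0 h, that at CHD4 sites was -1.57 with ranks over all peaks, and that at promoters was 0.546 without 2 h replicate 1 (range -3.14 to 0.546 without 1 library). None of these had a p under the threshold, and the cause was not tested. The 30 regions named by rank kept their direction wherever an alternative still held them, which was all 30 in most, 29 without 2 h replicate 2, 25 to 28 under the stricter peak filters, and 8 where peaks had to cover 50% of a region. They were chosen as the largest changes in the same libraries, so the kept direction follows from the choice and is no check. The fits with 8 libraries, the adjusted p of 0.2, the list with Ccnb1 and all settings of the fragment test were chosen after the data were seen.

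The deviations of replicates of equal number were hardly correlated across regions (0.052 for fold and 0.057 for fragments). This cannot show whether equal numbers share a culture or batch, which the labels do not give. With the replicate block the fold test made 0 lower and 0 higher calls (smallest adjusted p 0.0530), and the fragment test 1870 and 1900, or 1498 and 1555 with 8 libraries. Regions without a peak in at least 1 list did not enter, and how far depth decides this was not tested. Of the 4 libraries, the one with the lowest mean coverage (2 h replicate 1, 3.96) had the most peaks (33664). Among the regions named by fragments, those with few fragments tended to have the wider errors.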
